A study of Equus caballus with 10 samples.

Results

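Complement is a cascade of blood and tissue proteins that marks surfaces for clearance, recruits leukocytes and can lyse cells. It is started through the classical, the lectin or the alternative pathway, and all of them meet at the cleavage of C3. Soluble and membrane-bound regulators keep the cascade off the body's own cells. The liver makes most of the circulating proteins, but fibroblast-like cells also transcribe several of the genes, and cytokines such as IL-1β, IL-6 and interferon-γ are known to raise some of them.

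The genes described here are 9 complement components and regulators chosen by name. They are the classical pathway proteases C1R and C1S, C2 of the classical and lectin pathways, CFB and CFD of the alternative pathway, the central component C3, the soluble inhibitor SERPING1 and the membrane regulators CD55 and CD59. Of the 9 genes, 8 are among the 29196 genes analysed, and C3 was not analysed here. They were measured by RNA sequencing of primary equine tendon cells (tenocytes) from 5 adult donors, called donors 1 to 5. The cells of each donor were grown in 3D collagen gels for 14 days and gave 1 library to each of 2 groups. Both groups received the IRAK-4 inhibitor PF-06650833 (PF) daily at 100 nM, and 1 group also received IL-1β at 17 ng/ml every 3 to 4 days. IRAK-4 is a kinase downstream of the IL-1 receptor. Neither untreated cells nor cells given IL-1β alone are compared here, so a difference is that of IL-1β in the presence of the inhibitor.

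All levels are the variance-stabilized log2 values deposited by the authors. On this scale 0 reads correspond to 3.43, differences between low values are compressed, and a log2 difference is IL-1β plus PF minus PF alone. Between 26408915 and 35756833 reads per library were estimated to lie on genes. Each gene with reads in 5 or more libraries was tested with limma, and a gene was called differentially expressed at a Benjamini-Hochberg adjusted p below 0.05 and an absolute log2 difference of at least 1. The tendon genes COL1A1, SCX and MKX were read in every library, while TNMD, a defining tenocyte gene, was at 0 reads in all 10. A listing at 0 in every library says nothing here about the level of TNMD. Summed over the 13 tendon genes analysed, the normalized count lay between 1042622 and 1648327 in the PF group and between 343440 and 1364323 in the other group. Of the 12 that were tested, 3 (SCX, MKX and COMP) were lower with IL-1β plus PF and 9 did not pass. The median log2 difference of the 12 was -1.25. Among the 9, COL1A1 (log2 difference -1.38), COL1A2 (-1.28) and BGN (-0.68) were lower in 5 of 5 donors, and DCN (1.01) was higher in 5 of 5. With the donor as a replicate block, COL1A1 and COL1A2 were called (limma adjusted p = 0.0147 and 0.0169), as were 8.26% of all tested genes. In bulk libraries such as these, fewer cells of a kind and less RNA per cell cannot be told apart.

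Of the 8 complement genes, 6 could be tested and 1 of them, CD55, was differentially expressed, lower with IL-1β plus PF. Among all 17992 tested genes 6.68% were differentially expressed, with 3.11% higher and 3.57% lower. The median log2 difference was -0.03 over the 6 genes and -0.01 over all tested genes. For C1R, C1S and C2 the 5 donors differed from each other far more with IL-1β plus PF than with PF alone. The plot of the 8 genes by library shows CD55 falling in every donor and the lines of C1R, C1S and C2 fanning out.

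**Figure D1:**
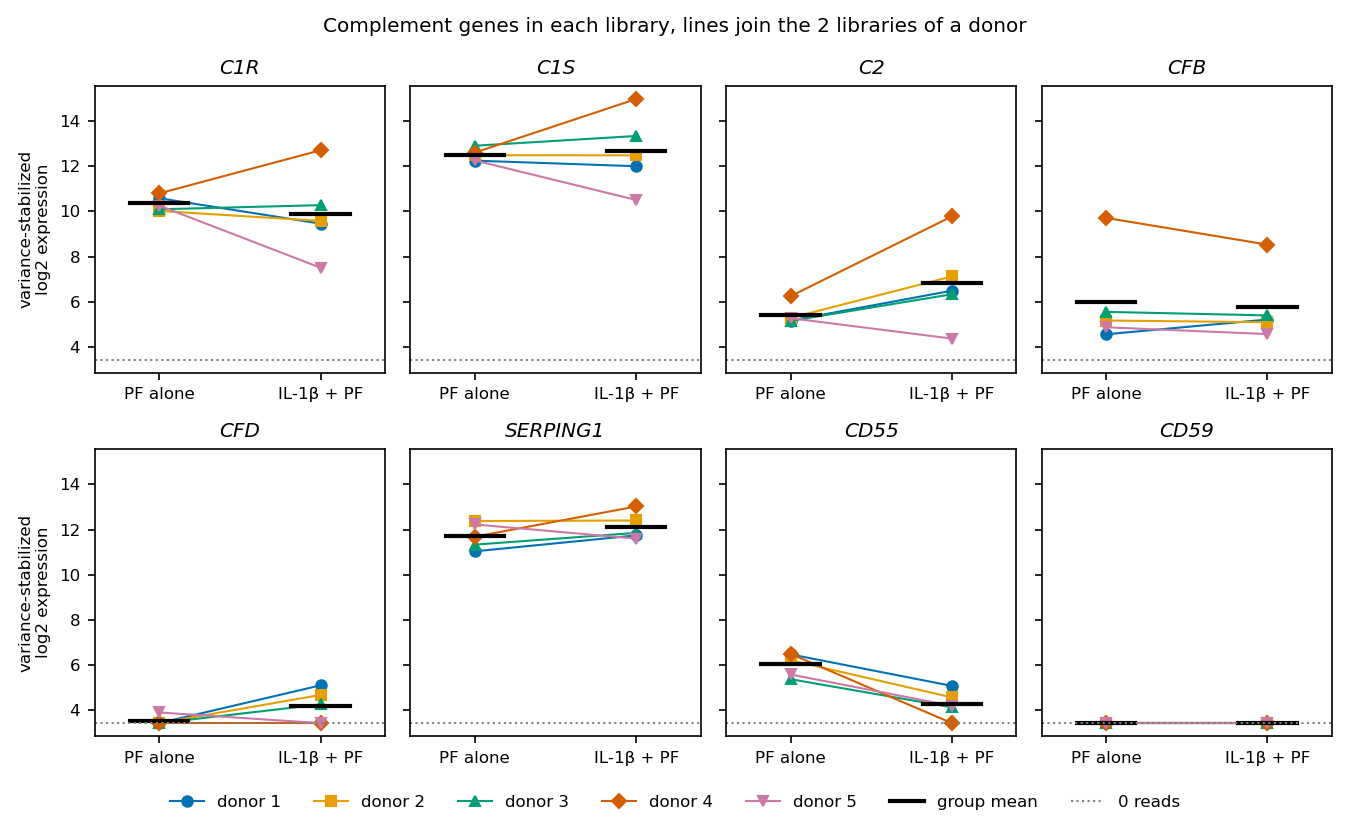
Variance-stabilized log2 expression (vertical axis) of 8 complement genes with PF alone and with IL-1β plus PF. Each line joins the 2 libraries of a donor, black bars are group means (n = 5) and the dotted line is the value of 0 reads. CD55 is lower with IL-1β plus PF in 5 of 5 donors, CFB is high in donor 4 in both groups, and CD59 lies at 0 reads throughout.

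The classical pathway starts with C1, in which the serine protease C1r activates the serine protease C1s, and C1s then cleaves C4 and C2. With PF alone the log2 level of C1R was 10.58, 10.02, 10.09, 10.80 and 10.26 in donors 1 to 5, and with IL-1β plus PF it was 9.46, 9.58, 10.28, 12.71 and 7.51. The groups overlapped: with IL-1β plus PF, donor 4 lay above every library with PF alone and donor 5 far below all of them. The mean of 10.35 ± 0.33 (SD, n = 5) with PF alone stood against 9.91 ± 1.87 (SD, n = 5), so the SD was 5.67 times as large. The log2 difference of C1R was -0.44 (95% interval -2.04 to 1.15, limma adjusted p = 0.740).

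C1S behaved in a similar way. Its log2 level was 12.25, 12.49, 12.91, 12.61 and 12.26 in donors 1 to 5 with PF alone, and 12.00, 12.48, 13.34, 14.98 and 10.51 with IL-1β plus PF. Again donor 4 was the highest and donor 5 the lowest of the libraries with IL-1β plus PF, while the libraries with PF alone lay between 12.25 and 12.91. The SD was 0.27 with PF alone and 1.65 with IL-1β plus PF, 6.03 times as large (3.84 times without donor 4), and the log2 difference was 0.16 (95% interval -1.24 to 1.56, limma adjusted p = 0.900). Among all tested genes the SD ratio had a median of 1.11, and it was at least that of C1R in 0.662% and at least that of C1S in 0.540% of genes, given as a description without a test. The direction of these 2 genes rests on single donors: without both libraries of donor 4 the log2 difference was -1.03 for C1R and -0.39 for C1S, and without those of donor 5 it was 0.13 and 0.64.

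The differences of C1R and C1S had the same sign in each donor, but in donor 2 C1S was all but unchanged (-0.006, against -0.44 for C1R). In each donor C1R moved less upward or more downward than C1S. The log2 ratio of C1R to C1S within a library changed by -0.88, -0.43, -0.25, -0.46 and -1.0 in donors 1 to 5. It was lower with IL-1β plus PF in 5 of 5 donors, from -2.15 ± 0.48 (SD, n = 5) to -2.75 ± 0.34 (SD, n = 5). An exact two-sided sign-flip permutation test over the 5 donors gave p = 0.0625. That is the smallest p this test can give with 5 pairs, so it cannot pass 0.05 and decides nothing here. The ratio was chosen after the values of both genes had been seen.

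C2 is the protease precursor that, once cleaved by C1s, forms part of the classical and lectin pathway C3 convertase. Its log2 level was 5.17, 5.28, 5.16, 6.25 and 5.27 in donors 1 to 5 with PF alone, and 6.49, 7.12, 6.33, 9.78 and 4.37 with IL-1β plus PF. C2 was higher with IL-1β plus PF in donors 1 to 4 and lower in donor 5, and donor 4 was the highest library in both groups. The SD was 0.46 with PF alone and 1.95 with IL-1β plus PF, 4.21 times as large. A ratio of at least this size was found for 1.90% of genes, given as a description without a test. The values rest on few reads, an estimated 13 to 51 per library in the PF group and 4 to 604 in the other. The scale compresses differences between values as low as those of the PF group, unlike for C1R and C1S. The log2 difference of 1.39 was the largest increase among the tested members, but leaving out 1 library or donor moved it between 0.65 (without the library of donor 4 with IL-1β plus PF) and 2.01 (without that of donor 5). Its 95% interval ran from -0.30 to 3.09 and it did not pass the test (limma adjusted p = 0.259, and 0.100 with the donor as a replicate block).

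The alternative pathway depends on factor B, encoded by CFB and a close relative of C2, and on factor D, the protease that cleaves factor B. CFB had log2 levels of 4.56, 5.17, 5.55, 9.71 and 4.87 in donors 1 to 5 with PF alone and of 5.21, 5.09, 5.40, 8.53 and 4.57 with IL-1β plus PF. The contrast in CFB was between donors rather than between groups. Donor 4 had 753 estimated reads with PF alone and 245 with IL-1β plus PF, whereas the other 8 libraries had 6 to 21. The log2 difference was -0.21 (standard error 1.01, 95% interval -2.44 to 2.01, limma adjusted p = 0.917). With the donor as a replicate block its standard error was 0.26, and CFB again did not pass (limma adjusted p = 0.601). Without both libraries of donor 4 the log2 difference was 0.03 (standard error 0.28). CFB and C2 are neighbours in the horse genome, by the RefSeq gene order of the TB-T2T assembly, and yet CFB in donor 4 was lower with IL-1β plus PF (log2 difference -1.18) while C2 in the same donor was higher (3.53).

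CFD was read in only 4 of the 10 libraries and was not tested. It was at 0 reads in donors 1 to 4 with PF alone and at 1 estimated read in donor 5, and with IL-1β plus PF it had 13, 8 and 3 estimated reads in donors 1, 2 and 3 and 0 in donors 4 and 5. On these few reads, CFD was higher with IL-1β plus PF in donors 1, 2 and 3, unchanged in donor 4 and lower in donor 5. In a fit of all 21298 genes that are not constant, the log2 difference of CFD was 0.66 (standard error 0.31, limma adjusted p = 0.202) and did not pass.

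SERPING1 encodes the C1 inhibitor, a serpin that binds and inactivates C1r and C1s. Its log2 level was 11.04, 12.38, 11.34, 11.69 and 12.23 in donors 1 to 5 with PF alone, and 11.75, 12.41, 11.86, 13.02 and 11.60 with IL-1β plus PF. The inhibitor was higher with IL-1β plus PF in 4 of 5 donors and lower in donor 5, with overlapping groups and an SD of 0.57 and 0.59. The log2 difference of 0.39 did not pass the test (95% interval -0.30 to 1.09, limma adjusted p = 0.451). Since every library had between 1838 and 5857 estimated reads of SERPING1, counting error was small, and its interval leaves out increases above 1.09 on the log2 scale.

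CD55, or decay-accelerating factor, is a membrane protein that speeds the decay of the C3 and C5 convertases and so protects a cell from its own complement. Its log2 level was 6.48, 6.22, 5.38, 6.5 and 5.59 in donors 1 to 5 with PF alone, and 5.08, 4.57, 4.13, 3.43 and 4.20 with IL-1β plus PF. The groups did not overlap, and CD55 fell in 5 of 5 donors. Separation of the groups was found for 12.7% of tested genes, of which those lower with IL-1β plus PF made up 6.41%, and the same sign in all 5 donors was found for 32.7%. The mean level was 6.03 ± 0.52 (SD, n = 5) with PF alone and fell to 4.28 ± 0.61 (SD, n = 5), so that the log2 difference was -1.75 (standard error 0.33, 95% interval -2.48 to -1.02, limma adjusted p = 0.00577).

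CD55 was a gene of few reads, with 17 to 64 estimated reads per library with PF alone and 13, 6, 2, 0 and 3 in donors 1 to 5 with IL-1β plus PF. Donor 4, which had the highest CD55 level with PF alone, had no read of it (0) with IL-1β plus PF, and against a floor of 3 reads in that library CD55 was at least 16.4-fold lower there. The mean normalized count of CD55 was 49.0 ± 22.1 (SD, n = 5) in the PF group, 8.57 times the 5.71 ± 6.15 (SD, n = 5) of the other. Because the deposited scale compresses such low values, the log2 difference became -3.31 on log2(normalized count + 1) values (limma adjusted p = 0.00911). CD55 remained differentially expressed in each of the 15 fits that left out 1 library or 1 donor, with log2 differences between -1.95 and -1.42.

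CD59 encodes the membrane protein that blocks assembly of the membrane attack complex, and it is known to be made by most cell types. It is listed at 0 reads in all 10 libraries, so nothing can be said here about its level. CD46, the third membrane regulator and a cofactor for the cleavage of C3b and C4b, stands in the data under its RefSeq gene number and was read in every library. Its log2 level was 11.75 ± 0.27 (SD, n = 5) in the PF group and 11.54 ± 0.22 (SD, n = 5) in the other, a log2 difference of -0.21 (95% interval -0.53 to 0.11, limma adjusted p = 0.378). CD46 was lower in 5 of 5 donors and did not pass with the donor as a replicate block either (limma adjusted p = 0.125). The 95% interval holds no decrease of the size seen for CD55.

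**Figure D2:**
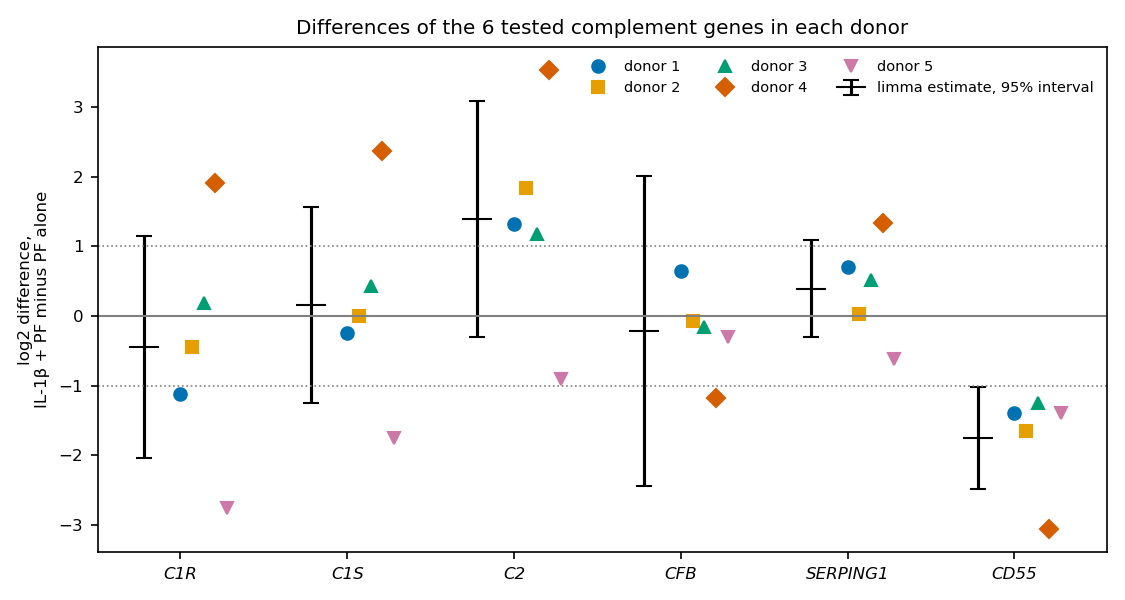
Log2 difference between IL-1β plus PF and PF alone (vertical axis) for the 6 tested complement genes. Coloured points are the 5 donors, black bars are the limma estimates with 95% intervals, and dotted lines mark differences of -1 and 1. The intervals are from the fit without a donor term, so they do not use the pairing by donor that the points show. The interval lies wholly below 0 for CD55 only, and donors 4 and 5 are the highest and the lowest points of C1R, C1S, C2 and SERPING1.

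The order of the donors was shared by several of these genes. The within-donor difference was highest in donor 4 and lowest in donor 5 for 4 of the 6 tested members (C1R, C1S, C2 and SERPING1), against 8.13% of all tested genes. In donor 4 these differences were 1.91 for C1R, 2.37 for C1S, 3.53 for C2 and 1.34 for SERPING1, and in donor 5 they were -2.75, -1.75, -0.90 and -0.62. CD55 and CFB did not share the order, since both had their lowest difference in donor 4, at -3.06 and -1.18. The pattern was noticed in the data, the genes were measured in the same libraries, and it carries no test.

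Of 22 transcription factors, cytokines and receptors known to act on complement genes, 20 were tested, 6 were higher with IL-1β plus PF and 1 was lower, against 3.11% higher and 3.57% lower among all tested genes. Those that rose were IL6, LIF, CEBPB, NFKB1, NFKB2 and IRF1, and the 1 that fell was IL6ST, the shared signalling receptor of the IL-6 family (log2 difference -1.06, limma adjusted p = 0.020). The call of IL6ST was lost without donor 1, 2 or 5, and also without the library of any of these with IL-1β plus PF. The other 13 tested genes did not pass, and OSM and IFNG were read in too few libraries. The cytokine genes IL6 (log2 difference 8.79) and LIF (4.99) and the transcription factor genes CEBPB (1.5), NFKB2 (1.32) and NFKB1 (1.15) were higher in 5 of 5 donors.

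IRF1, a transcription factor of the interferon response, had the same order of donors at both ends as C1R, C1S, C2 and SERPING1. It was at 11.30, 11.73, 11.13, 12.79 and 9.93 in donors 1 to 5 with IL-1β plus PF and between 9.15 and 10.14 with PF alone, a log2 difference of 1.74 (standard error 0.42, limma adjusted p = 0.0189) that was no longer called without donor 1 or donor 2. IRF1 was higher in 5 of 5 donors, including donor 5, in which C1R, C1S, C2 and SERPING1 were lower. Of the 20 tested genes of this list, 3 had their difference highest in donor 4 and lowest in donor 5.

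**Figure D3:**
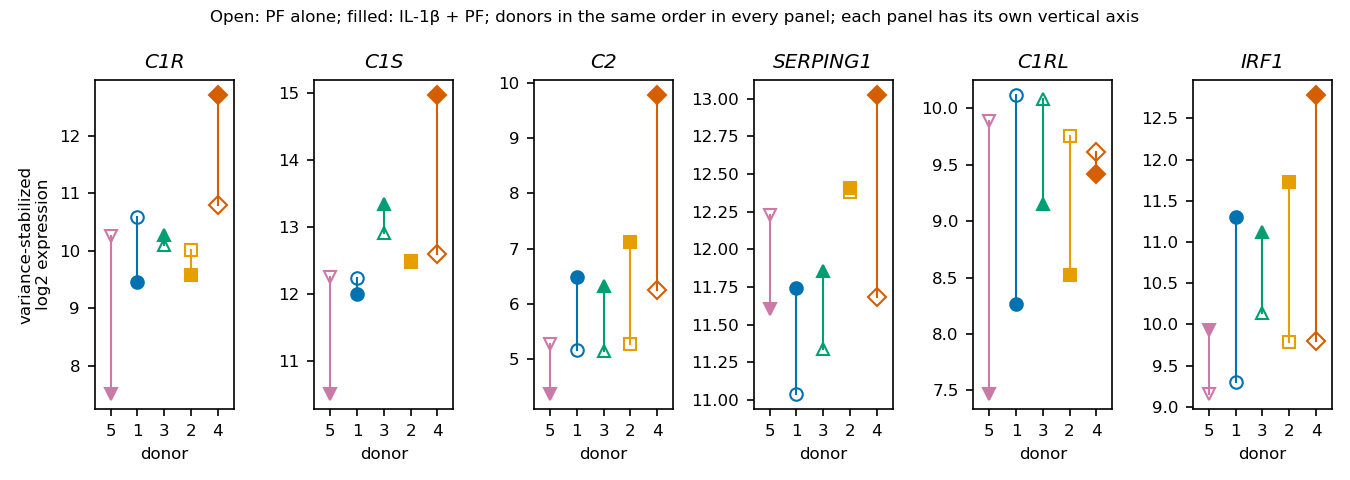
Variance-stabilized log2 expression (vertical axes, one scale per panel) of C1R, C1S, C2, SERPING1, C1RL and IRF1 in each donor, with donors in the same order in every panel. Open symbols are PF alone, filled symbols are IL-1β plus PF, and lines join the libraries of a donor. The panels show genes that share 1 order: donor 5 has the lowest and donor 4 the highest filled symbol in all 6. Among all tested genes 9.02% had this order.

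Beyond the members, a list of 47 other complement genes and receptors was examined, of which 41 were among the genes analysed and 21 were tested. Of these 21, 3 were differentially expressed (14.3%, against 6.68% of all tested genes), all lower with IL-1β plus PF, and 18 did not pass. The median log2 difference of the 21 genes was 0.12. The terminal components C6, C8A, C8B and C9, the 3 chains of C1q (C1QA, C1QB and C1QC) and the C4b-binding protein genes C4BPA and C4BPB were at 0 reads in all 10 libraries. As for CD59, a listing at 0 in every library says nothing here about their level. The terminal components C7 (29 to 83 estimated reads per library, log2 difference 0.19, limma adjusted p = 0.685) and C8G (60 to 159, 0.45, 0.201) were read in all 10 libraries and did not pass.

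The largest decrease of this list was that of COLEC12, a collectin scavenger receptor. It was at 12.86, 12.96, 12.76, 12.75 and 12.54 in donors 1 to 5 with PF alone and at 8.16, 7.54, 10.84, 10.48 and 6.99 with IL-1β plus PF, a log2 difference of -3.97 (standard error 0.67, limma adjusted p = 0.00311). The groups were far apart, and the fall was smallest in donors 3 and 4.

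C1RL, a relative and genomic neighbour of C1R, was at 9.89 ± 0.22 (SD, n = 5) with PF alone and fell to 8.57 ± 0.77 (SD, n = 5), with a difference of -1.33 on the log2 scale (standard error 0.31, limma adjusted p = 0.0162). The decrease was -0.19 in donor 4 and -2.42 in donor 5, the order seen for C1R and C1S. Of the 21 tested other complement genes, 3 had their difference highest in donor 4 and lowest in donor 5. CFI, the protease that degrades C3b and C4b with the help of cofactors such as CD46, was at 7.22 ± 0.39 (SD, n = 5) with PF alone and fell to 5.85 ± 0.52 (SD, n = 5), with a difference of -1.36 on the log2 scale (standard error 0.28, limma adjusted p = 0.00907). The groups of both genes did not overlap. Each of C1RL and CFI lost its call in 2 of the 15 fits that left out 1 library or donor, C1RL without donor 1 (limma adjusted p = 0.0949) or donor 2 (0.0699) and CFI without donor 2 (0.0592) or donor 5 (0.0576).

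Other regulators of the list did not pass. CLU, or clusterin, which binds terminal complement complexes, was lower in 5 of 5 donors (log2 difference -0.73, limma adjusted p = 0.0807). With the donor as a replicate block CLU had a limma adjusted p of 0.031 and was not called, because its absolute log2 difference is below 1. CSMD2, a membrane protein with complement control domains, was higher in 5 of 5 donors with overlapping groups (log2 difference 1.81, limma adjusted p = 0.0802), and it was differentially expressed with the donor as a replicate block (limma adjusted p = 0.00180), by which 8.26% of tested genes were called. The anaphylatoxin receptor genes C3AR1 (log2 difference 1.16, limma adjusted p = 0.130) and C5AR1 (0.92, 0.121) had at most 5 and 3 estimated reads per library with PF alone and up to 105 and 25 with IL-1β plus PF. CLU, CSMD2, C3AR1 and C5AR1 were named after their values had been seen.

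**Figure D4:**
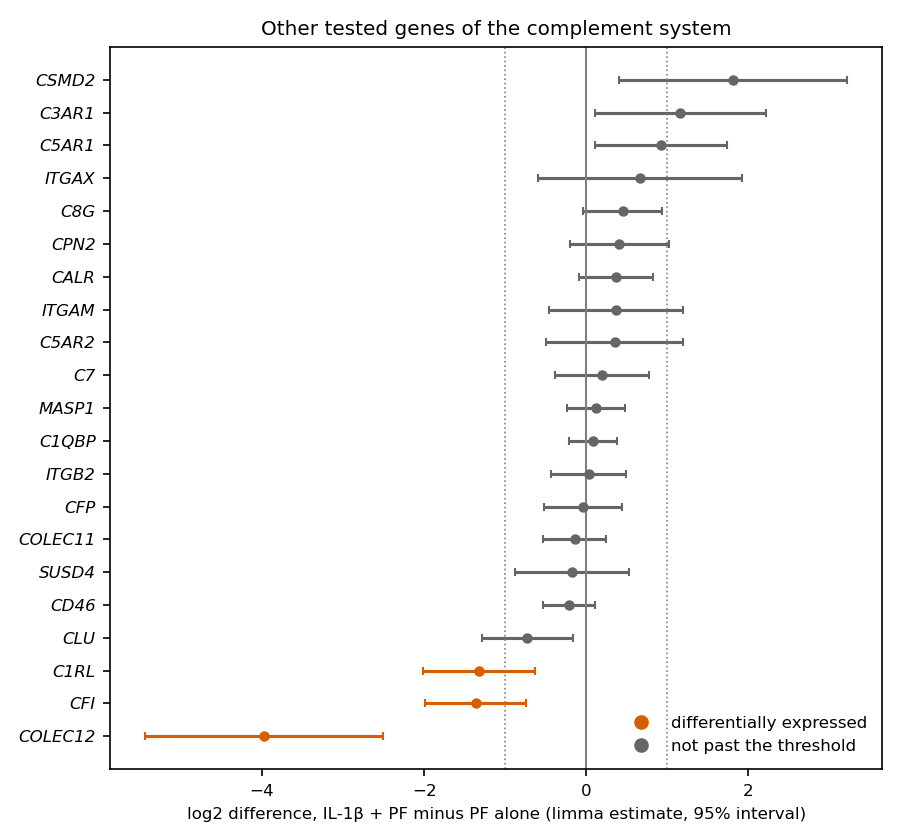
Log2 difference between IL-1β plus PF and PF alone (horizontal axis) for the 21 other tested complement genes, with limma estimates and 95% intervals (n = 5 per group). Dotted lines mark differences of -1 and 1. The intervals are from the fit without a donor term. The 3 differentially expressed genes, COLEC12, CFI and C1RL, are all on the lower side.

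Leukocytes and endothelial cells also transcribe complement genes, and markers of both were read beside these results. Of 14 leukocyte markers, 8 had no more than 3 estimated reads in each of the 10 libraries, among them the pan-leukocyte gene PTPRC, which was at 0 in all libraries with IL-1β plus PF. Of these 8, 4 (AIF1, CD3E, CD3D and MS4A1) were at 0 reads in all 10 libraries. As for CD59, such a listing says nothing here about their level. The summed normalized count of the 14 markers was 222 to 1979 in the PF group (median 282) and 346 to 2150 in the other (median 1641). CD14, a monocyte receptor gene with 0 to 1466 estimated reads per library, had the highest mean normalized count of these markers in both groups and was higher in 4 donors and lower in 0 (log2 difference 2.66, limma adjusted p = 0.340), and CD68, a lysosomal gene that is also read in fibroblasts, was the 1 marker that rose (log2 difference 1.70, limma adjusted p = 0.00795). The 8 endothelial markers summed to 232 to 715 normalized counts in the PF group and 46.1 to 106 in the other. Most of each sum was ERG, with a mean of 504 in the PF group and 57.8 in the other, and ERG was the 1 of them that fell (log2 difference -2.68, limma adjusted p = 3.89e-04). No library held more than 35 estimated reads of any other endothelial marker. Those tested went both ways, such as PECAM1 (log2 difference 0.67) and VWF (-0.73), and did not pass. The part of other cells in the complement results was not tested.

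By their 5 within-donor differences, the tested genes most like CD55 were EPOR, GPRC5B and F5, with a mean absolute distance over the 5 donors of 0.24, 0.26 and 0.27 on the log2 scale. EPOR encodes the erythropoietin receptor, GPRC5B an orphan receptor and F5 coagulation factor V. Their log2 differences were -1.53, -1.91 and -1.62, against -1.75 for CD55. All of them had their lowest difference in donor 4, at -2.22, -2.84 and -3.03. Since they were picked for closeness to the differences of CD55, that likeness follows from the choice and is no separate result. F5 had a mean of 3.53 with IL-1β plus PF, close to the value of 0 reads, so its differences mostly reflect its level with PF alone.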

How the data were processed

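RNA from tendon cells of 5 donors in 2 groups was sequenced. The authors quantified reads with Salmon (version 1.8) on the EquCab3.0 transcriptome with GC-bias correction, summed them to genes with tximport and used DESeq2 (version 1.36). They deposited log2 values for 29196 genes, recognised as variance-stabilized from their common lowest value, 3.433. Which libraries were normalized together is not given in the sources used here. All 10 columns were used.

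Genes were fitted with limma (version 3.58.1, R 4.3.3, mean-variance trend, no donor term, as the methods of the study name none), with Benjamini-Hochberg adjustment over 17992 genes. Donors pair the libraries by the line named in the labels, and same-donor libraries deviated together from their group means (correlations across genes 0.367 to 0.506). Normalized counts were obtained by inverting the transformation, and estimated reads from the spacing of the lowest values, of which 63.7% to 82.3% lay within 0.15 of a whole read (30% if evenly spread). Estimated reads are approximate and any floor covers counting error only. On simulated counts of 17992 genes the fit called 19 of 50 genes changed 2-fold, 40 of 50 changed 4-fold, and 5 unchanged genes. The changed genes had mean normalized counts of at least 50, and counts were drawn without a donor effect. These rates therefore do not cover CD55, with group means of 49.0 and 5.71.

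The members, lists and rules were chosen with earlier results of these data known. The genes named were the members, the differentially expressed genes of both lists, genes needed to account for a list, and the 3 genes nearest to each differentially expressed member. Alternatives were the donor block, other filters, scales, normalizations, variance models and thresholds, and leaving out each library or donor. The donor block without donor 4 was added after the data had been seen. FCN1, C4A, C4B, C4, CR1, CR2 and COL3A1 were not analysed here, and 2 further genes of the lists are not reported here and were left out of their counts. Names were matched to RefSeq genes of another horse assembly, TB-T2T, for 25057 genes, and no positions or sequences are given.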

Additional observations from a re-analysis of the deposited data

Results flagged for a closer look

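Groups of 5 libraries were checked for the members, the differentially expressed genes of both lists, C3AR1, CSMD2 and CLU. Among 40 such groups, 7 held a library far from the other 4, where chance would give about 2 if the groups were independent. They share the same donors, so they are not. Donor 4 was the library apart in 4 of the 7. CFB was at 9.71 in donor 4 with PF alone against 4.56 to 5.55 in the others, and at 8.53 with IL-1β plus PF against 4.57 to 5.40. With PF alone, donor 4 also had C2 at 6.25 (the others 5.16 to 5.28), and with IL-1β plus PF it had IL6ST at 14.37 (12.89 to 13.32). CEBPB in donor 3 was the highest with PF alone, at 13.25 against 12.67 to 12.82, and the lowest with IL-1β plus PF, at 13.92 against 14.39 to 14.48. CFD was at 3.91 in donor 5 with PF alone, which is 1 estimated read, and at 0 reads in the others. As a whole library, donor 4 with IL-1β plus PF had the lowest mean correlation across genes with the rest of its group, 0.968, but the highest in that group was 0.980.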

How the results depend on the processing

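CD55 kept its direction and its call in every alternative that could give it a value. It is at 0 reads in 1 library, so a filter that asks for reads in all 10 libraries removes it and leaves 0 members called among 5 tested. C2 and SERPING1 kept their direction in every alternative, with adjusted p-values from 0.0698 to 0.476 and from 0.293 to 0.784, and no tested member other than CD55 was called in any. The direction of C1S turned with array weights (log2 difference -0.089), and the fits that left out libraries or donors gave -0.42 to 0.70 for C1S, -1.14 to 0.16 for C1R and -0.90 to 0.72 for CFB. With the replicate block and without donor 4 the values were 0.030 for CFB and -0.39 for C1S. The cause was not tested.

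The count of all differentially expressed genes was 2782 without a minimum fold change, 719 at an adjusted p below 0.01, and 747 to 1410 when libraries or donors were left out, against 1202; with the replicate block it was 1486, and the block changed no call of a member. For the other complement genes the count was 5 with array weights, which added C3AR1 and C5AR1, 7 with the replicate block and without donor 4, and 1 to 4 when libraries or donors were left out, against 3. For the genes known to act on complement genes it was 12 without a minimum fold change and 5 to 8 with libraries or donors left out, against 7. The change in the ratio of C1R to C1S ranged from -0.69 to -0.51 over those that left out a donor.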
